A study of Mus musculus with 14 samples.

Results

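Lcn2, Lrg1 and Serpina3n are 3 mouse genes whose secreted proteins are known from the acute phase response, and their transcripts were measured here in the medial prefrontal cortex of 14 mice. They were chosen by these array levels, which had stood out between the groups in earlier results of these data, so their levels and differences between groups are given as a description with no test. Each was matched through the RefSeq transcript of its probe. Each had 1 probe, and the 3 probes stand among 55681 on the array, where 20887 genes were named and 14453 were bright enough to be tested.

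All mice were wild type C57BL/6. The 5 naive mice were only moved between cages, and the other mice went through repeated social defeat stress, in which a mouse is attacked by an aggressor. The defeated mice were labelled by behaviour as susceptible (6 mice) or resilient (3 mice). Every mouse was perfused with cold buffered saline 4 h after its last session, a 1.5 mm punch of the cortex was taken, and 35 ng of RNA per mouse was labelled with Cy3 and put on its own array. No other allele, transgene or agent is named in the labels. Levels are log2 signals relative to the 75th percentile of the same array, so a level of 0 is a spot as bright as that percentile, and a difference of 1 is 2-fold.

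Lipocalin 2, the product of Lcn2, binds bacterial siderophores and so keeps iron from microbes. Leucine-rich alpha-2-glycoprotein 1, the product of Lrg1, is a plasma protein that modulates TGF-beta signalling in endothelial cells. Serpina3n encodes a serine protease inhibitor of the alpha-1-antichymotrypsin type. In liver and other tissues such genes are induced by cytokines that signal through the shared receptor subunit gp130 and STAT3, by interleukin 1 through NF-kB, and in part by glucocorticoids. In brain, Lcn2 and Serpina3n are widely used as markers of reactive astrocytes, and Lcn2 and Lrg1 are also made by endothelial cells and neutrophils.

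The 3 promoters are shown because all 3 transcripts were higher in defeated mice. They are RefSeq sequences of build GRCm38.p6, 5′ to 3′ on the gene's strand, and each holds the 250 bases before the start of the gene. Capitals mark the matches to the motifs searched.
Lcn2, chr2:32387740-32387989, minus strand: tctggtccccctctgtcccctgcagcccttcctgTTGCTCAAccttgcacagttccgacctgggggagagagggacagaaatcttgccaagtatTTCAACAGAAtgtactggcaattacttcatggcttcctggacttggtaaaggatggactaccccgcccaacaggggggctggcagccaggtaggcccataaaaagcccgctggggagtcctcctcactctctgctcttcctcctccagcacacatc
Lrg1, chr17:56121947-56122196, minus strand: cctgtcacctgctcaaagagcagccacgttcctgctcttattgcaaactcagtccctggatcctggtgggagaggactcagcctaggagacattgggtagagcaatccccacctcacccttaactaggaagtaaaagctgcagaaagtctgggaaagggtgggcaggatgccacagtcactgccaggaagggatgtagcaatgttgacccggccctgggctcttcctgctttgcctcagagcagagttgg
Serpina3n, chr12:104406458-104406707, plus strand: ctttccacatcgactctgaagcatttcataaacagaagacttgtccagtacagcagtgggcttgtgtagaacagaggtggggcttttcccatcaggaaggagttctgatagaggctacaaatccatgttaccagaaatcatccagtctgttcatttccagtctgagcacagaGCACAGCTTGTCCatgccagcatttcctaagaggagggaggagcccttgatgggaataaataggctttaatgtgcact
Both strands were searched for the STAT motif (TTC and GAA with 3 or 4 bases between), TTGCNNAA (C/EBP), the glucocorticoid receptor motif (GNACA and TGTNC with 3 bases between), TATAAA and the NF-kB motif. No 2 of the matches overlapped. Lcn2 held a STAT match with 4 bases between 156 bases and a TTGCNNAA match 216 bases before its start. Serpina3n held a glucocorticoid receptor match 78 bases before its start, and the Lrg1 window held no match to any of these motifs. Among 32851 promoter windows of the same length, 5.85% held the STAT motif with 4 and 7.02% with 3 bases between, 9.56% TTGCNNAA, 7.25% the NF-kB motif, 12.4% TATAAA and 0.387% the glucocorticoid receptor motif. These matches are a description and were not tested as binding sites.

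On each array 48.0% to 65.4% of spots exceeded background clearly and none was saturated, and 8 of 8 markers of cortical excitatory neurons were well above background on all 14 arrays. There were 3 slides and 2 scan days. Slide 3, the only slide of the second day, held 2 naive and 2 susceptible mice and was the brightest, with a log2 75th percentile of 8.59 for its naive and 8.93 for its susceptible arrays, against 7.30 to 8.06 for the groups on slides 1 and 2. All naive arrays lay in the first row of their slide and all defeated ones in the second, so an effect of the row and an effect of defeat cannot be told apart. In these tissue punches, fewer cells of a type and less RNA per cell cannot be told apart either.

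Lcn2 was higher in every defeated mouse than in any naive mouse. Its log2 levels in naive mice 1 to 5 were −0.75, −0.55, −0.52, −1.21 and −1.12. In susceptible mice 1 to 6 they were 3.47, 2.56, 1.78, 1.43, 2.90 and 3.05, and in resilient mice 1 to 3 they were 3.06, 0.58 and 2.38. The lowest susceptible mouse lay 1.95 above the highest naive mouse, and neither defeated group overlapped the naive group. The mean was −0.83 ± 0.32 in naive mice (SD, n = 5), 2.53 ± 0.78 in susceptible mice (n = 6) and 2.01 ± 1.28 in resilient mice (n = 3). Susceptible mice were higher than naive by 3.36 ± 0.42 (SE), a 10.3-fold difference, and resilient mice by 2.84 ± 0.51, a 7.17-fold difference. Against the naive mean, single susceptible mice ranged from 4.79-fold to 19.7-fold, and resilient mice 1 to 3 stood at 14.9-fold, 2.67-fold and 9.28-fold. Among 14453 tested genes, the difference of Lcn2 from naive mice ranked 3 in susceptible and 2 in resilient mice.

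Lrg1 followed the same order of groups. Its levels in naive mice 1 to 5 were −1.44, −1.98, −1.32, −1.48 and −0.67. Susceptible mice 1 to 6 had 1.76, 0.79, 0.28, −0.07, 1.27 and 1.65, and resilient mice 1 to 3 had 1.48, −0.62 and 0.79. Susceptible 4 and resilient 2 were again the lowest of their groups, as for Lcn2. No defeated mouse overlapped the naive group, but resilient 2 lay only 0.05 above naive 5. Means were −1.38 ± 0.47 (SD, n = 5), 0.95 ± 0.74 (n = 6) and 0.55 ± 1.07 (n = 3) in naive, susceptible and resilient mice. The difference from naive mice was 2.32 ± 0.39 (SE; 5.00-fold) in susceptible and 1.92 ± 0.47 (3.79-fold) in resilient mice, ranks 5 and 4 of all tested genes.

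Serpina3n differed less and its groups overlapped. Naive mice 1 to 5 had −2.13, −2.28, −3.56, −1.76 and −1.58, susceptible mice 1 to 6 had −0.81, −1.57, −1.48, −1.92, −0.04 and −0.52, and resilient mice 1 to 3 had −0.60, −2.05 and −1.90. The lowest value, that of naive 3, was the only one of this probe not well above background, so the gene was measured on 13 of 14 arrays and passed the filter on dim probes through the susceptible and resilient groups. Both slide 3 susceptible mice, 5 and 6, were the highest of their group, and both slide 3 naive mice, 4 and 5, the highest of theirs. Of the 6 susceptible mice 5 lay above every naive mouse, and of the 3 resilient mice 1 did. Means were −2.26 ± 0.78 (SD, n = 5), −1.06 ± 0.72 (n = 6) and −1.51 ± 0.80 (n = 3) in naive, susceptible and resilient mice. The difference from naive mice was 1.20 ± 0.40 (SE; 2.30-fold) in susceptible mice, rank 27, and 0.75 ± 0.49 (1.68-fold) in resilient mice, rank 234. With a model-based background correction (normexp) these became 0.55 and 0.29, with array weights the first was 0.79, and with array brightness in the fit, an alternative added after the data were seen, it was 0.80. The resilient difference was 0.29 without resilient 1 and 0.42 without naive 3, the mouse below background. It was larger with slide (1.00 ± 0.36) or scan day (1.18 ± 0.38) as a block and with mice paired by number (1.14 ± 0.27). The fit paired by number used only mice 1 to 3 of both groups. Naive 4 and 5, the highest naive mice for this gene, were left out of it, and naive 3 was kept.

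**Figure D1:**
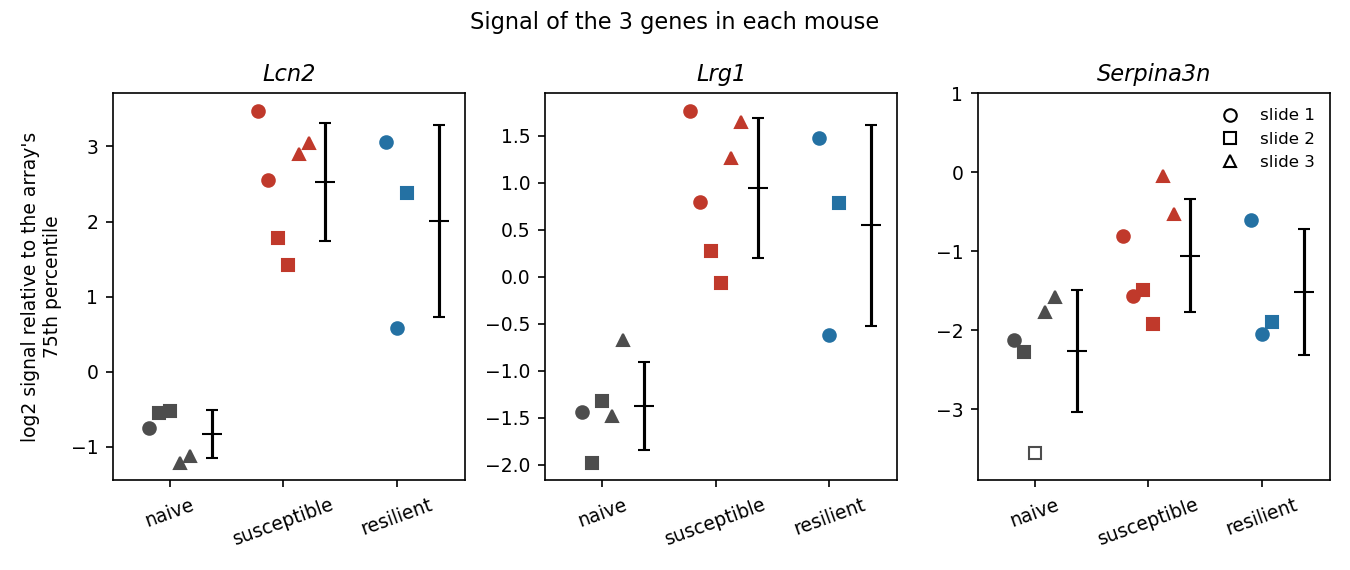
Log2 signal relative to the array's 75th percentile (vertical axis) of Lcn2, Lrg1 and Serpina3n in each of the 14 mice, with a point per mouse, shaped by slide, and the group mean and SD; the hollow point is a spot not well above background. All 9 defeated mice lie above all 5 naive mice for Lcn2 and Lrg1, while for Serpina3n 5 of 6 susceptible and 1 of 3 resilient mice do.

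Of the 3 genes, 2 had every susceptible mouse above every naive mouse, an arrangement found for 2.49% of all tested genes, and the same 2 had every resilient mouse above every naive mouse, found for 8.32%. These contrasts chose the genes, so nothing is read from those shares. Both comparisons use the same 5 naive mice, and the values are therefore given side by side only.

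Susceptible and resilient mice overlapped for all 3 genes. The difference, susceptible minus resilient, was 0.52 ± 0.49 (SE) for Lcn2, 0.40 ± 0.46 for Lrg1 and 0.46 ± 0.47 for Serpina3n, each close to its standard error. Of the 6 susceptible mice, 1 lay above all resilient mice for Lcn2, and 2 did for Lrg1 and for Serpina3n. No tested gene was called between these groups by limma after Benjamini-Hochberg adjustment (0 of 14453, 0%; 108 at an unadjusted p under 0.05), and every susceptible mouse lay above every resilient mouse for 0.304% of genes. The sign turned for Lcn2 and Lrg1 with a single mouse: without resilient 2 the differences were −0.19 and −0.19, and without resilient 1 they were 1.05 and 0.86. For Serpina3n they were 0.19 and 0.92 without the same mice. With array weights the differences were 0.21, 0.10 and 0.09 for Lcn2, Lrg1 and Serpina3n, and with scan day as a block they were 0.49, 0.18 and 0.10.

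Within slides the difference from naive mice kept its sign for all 3 genes. Susceptible minus naive on slides 1, 2 and 3 was 3.77, 2.14 and 4.14 for Lcn2, and 2.71, 1.75 and 2.53 for Lrg1. For Serpina3n it was 0.94, 1.22 and 1.39. Slide 2, with susceptible 3 and 4, gave the smallest difference for Lcn2 and Lrg1 but not for Serpina3n. Resilient minus naive on slides 1 and 2 was 2.58 and 2.92 for Lcn2, 1.87 and 2.43 for Lrg1, and 0.81 and 1.02 for Serpina3n. Susceptible minus resilient changed sign between slides 1 and 2 for Lcn2 (1.19 and −0.78) and for Lrg1 (0.85 and −0.68), and was 0.13 and 0.20 for Serpina3n. With slide as a block the susceptible difference from naive was 3.33, 2.32 and 1.21 for Lcn2, Lrg1 and Serpina3n. These within-slide values rest on 1 or 2 mice per group.

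**Figure D2:**
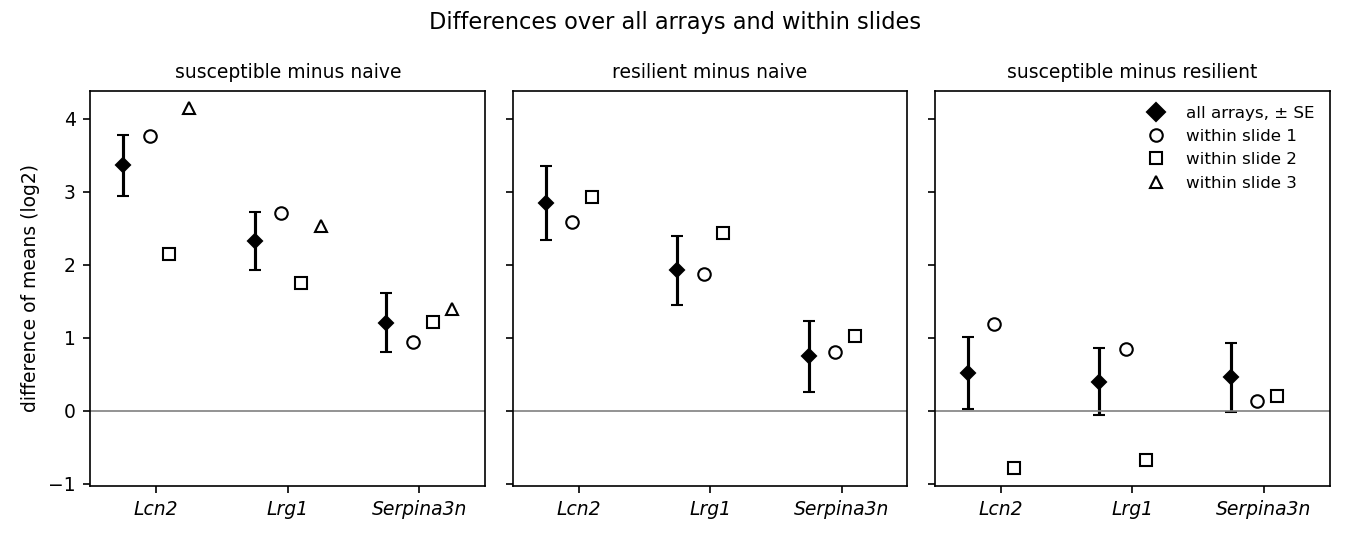
Difference of mean log2 levels (vertical axis) of each gene between susceptible and naive, resilient and naive, and susceptible and resilient mice, over all arrays (filled diamonds with SE) and within each slide (open points). All differences from naive mice lie above 0, while susceptible minus resilient lies below 0 on slide 2 for Lcn2 (−0.78) and Lrg1 (−0.68).

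Among the 6 susceptible mice, Lcn2 and Lrg1 put the mice in the same order. Pearson's r was 0.985 (exact permutation p = 0.00139, the smallest that 720 pairings allow; 0.00417 after Benjamini-Hochberg adjustment over 3 pairs of genes), and Spearman's rho was 1 (exact permutation p = 0.00278, adjusted 0.00833). Without susceptible 3 and 4, the mice farthest from the median of Lcn2, r was 0.935. The relation of Lcn2 to Serpina3n had r = 0.763 (exact permutation p = 0.0972, adjusted 0.0972) and rho = 0.714 (exact permutation p = 0.136, adjusted 0.136), and without the same mice r was 0.377. The relation of Lrg1 to Serpina3n had r = 0.804 (exact permutation p = 0.0722, adjusted 0.0972) and rho = 0.714 (exact permutation p = 0.136, adjusted 0.136), and r was 0.522 without the 2 farthest mice. Neither relation with Serpina3n passed the threshold, and both were weaker without the farthest mice. The same 6 mice lay on 3 slides, 2 on each, too few for a value within a slide. Both slide 2 mice, susceptible 3 and 4, were the lowest 2 of the 6 for Lcn2 and for Lrg1. The permutations exchanged mice between slides, so a shift shared by a slide was not separated from these relations.

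**Figure D3:**
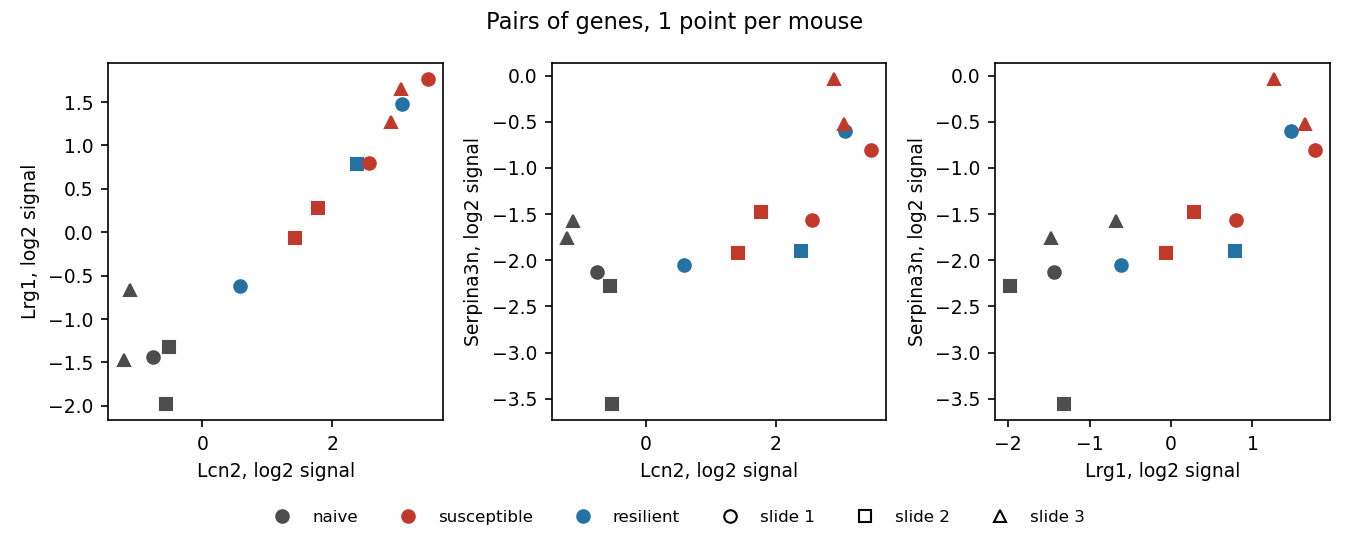
Log2 levels of each pair of the 3 genes against each other, with a point per mouse coloured by group and shaped by slide. Among the 6 susceptible mice Lcn2 and Lrg1 fall along a line (r = 0.985), while the relations with Serpina3n are looser (r = 0.763 and 0.804).

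Over all 14 mice the gene most like Lcn2 was Lrg1 (r = 0.957), followed by Socs3 (0.941), the feedback inhibitor of cytokine receptors that use STAT3, Pkp2 (0.920), a desmosomal protein gene, Fmo2 (0.918), a monooxygenase gene, and Lratd1 (0.906). The genes most like Lrg1 were Lcn2 (0.957), Fmo2 (0.929), Lratd1 (0.917), Osmr (0.916), the oncostatin M receptor subunit that pairs with gp130, and Socs3 (0.899). None of these was among the 5 most like Serpina3n, which were Nupl2 (0.919), Cnot11 (0.906), Spag6l (0.897), Cebpa (0.896), a C/EBP transcription factor gene, and Kctd20 (0.895). In the order of likeness to Serpina3n, Lrg1 stood at rank 340 (r = 0.783) and Lcn2 at rank 948 (r = 0.703). These are Pearson correlations of log2 levels over 14 mice, given as a description. The mice of a group share its treatment, and the values of a mouse share an array. Fmo2 was well above background in 3 of 5 naive and all defeated mice. It passed the filter on dim probes only through defeated mice, where it was higher.

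With each group's mean subtracted, which leaves the spread among mice of a group, Lrg1 stood at rank 4 in likeness to Lcn2 (r = 0.835). Rnf207 (0.847), Procr (0.845), the endothelial protein C receptor gene, and Chia1 (0.844) came before it and Pus7l (0.834) after. For Lrg1 the order was Mkx (0.875), Rnf207 (0.871), Greb1l (0.859), Osmr (0.855) and Slc4a11 (0.838), with Lcn2 at rank 8. For Serpina3n it was Suco (0.926), Notch4 (0.918), Tbk1 (0.893), Zfp451 (0.893) and Cwf19l1 (0.893). There Lrg1 stood at rank 1245 (r = 0.639) and Lcn2 at rank 2714 (r = 0.453). For Serpina3n and each of its nearest genes, naive 4 and 5 and susceptible 5 and 6 were the highest of their groups. These mice lay on slide 3, and slide was not subtracted. Suco was well above background in 2 of 5 naive mice, and Procr in 3 of 6 susceptible and 2 of 3 resilient mice. In the resilient group all 3 genes put the mice in the same order, 1, 3 and 2 from the highest.

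Genes of the pathways named above were read from 12 lists with 192 genes in all, of which 134 were tested. In susceptible against naive mice, limma with Benjamini-Hochberg adjustment over all 14453 genes called 9 of these higher and 4 lower, 9.7% against 2.6% of all tested genes (1.64% higher and 0.962% lower). Glucocorticoid-induced genes made up 8 of the 9, and without that list 5 of 114 were called (4.39%). The lists were chosen with earlier results of these data known, and the glucocorticoid list had been seen to stand out in them. Shares of the lists set against all genes are therefore a description only. The median difference over the 134 was −0.02, against 0.02 over all genes. The count of 13 fell to 1 without susceptible 1, 2 or 5, to 2 without naive 2, to 4 without naive 3, to 5 without naive 4 or susceptible 3 and to 8 without naive 1, and was 20 without susceptible 6. Calls over all genes moved the same way in these fits, from 2.6% to 0.187%, 0.298% and 0.429% without susceptible 1, 2 and 5. They were 0.408%, 0.394% and 1.02% without naive 2, 3 and 4, and 0.955% without susceptible 3. Without naive 1 they were 1.63%, and without susceptible 6 they were 6.01%. Leaving out a mouse at a time, Slc40a1 was called each time. In resilient against naive mice 0 of the 134 passed, against 0.152% of all genes, and 29.9% had an unadjusted p under 0.05, against 20.3% of all genes. In a fit of only the 6 mice whose number is in both groups, paired by number, 24 of the 134 passed (12 higher and 12 lower). This was 17.9% against 8.37% of all genes. With array weights 16 passed, 11.9% against 5.24%. Between susceptible and resilient mice 0 of the 134 passed, and 0 had an unadjusted p under 0.05.

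Among ligands, receptors and effectors of gp130 signalling, 1 of 21 tested genes rose in susceptible mice and none fell, with a median difference of 0.04. That gene was Socs3. Its levels were −1.34, −1.69, −1.37, −1.85 and −1.74 in naive mice, −0.52, −0.61, −0.93, −1.39, −0.71 and −0.68 in susceptible mice and −0.54, −1.04 and −0.70 in resilient mice. Only susceptible 4, the mouse lowest in Lcn2 and Lrg1, overlapped the naive range. Socs3 was higher by 0.79 ± 0.16 (SE) in susceptible mice (limma, adjusted p = 0.0312) and by 0.84 ± 0.19 in resilient mice (adjusted p = 0.0777; 0.0315 with mice paired by number). In susceptible mice it missed the threshold with normexp (0.46, limma adjusted p = 0.0689), with only the 2 groups compared (0.0532), with no filter on dim probes (0.0743), and without naive 2 (0.0678), naive 3 (0.0519), naive 4 (0.0522), susceptible 1 (0.0679), susceptible 2 (0.0720) or susceptible 5 (0.0570). The fit of resilient and naive mice paired by number called 8.37% of all genes. It used only mice 1 to 3 of both groups, whose numbers were not shown to pair them.

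Osmr had −1.86, −2.07, −1.66, −1.60 and −1.62 in naive mice, −0.49, −1.11, −0.77, −1.65, −0.48 and −0.76 in susceptible mice and −0.07, −1.46 and −0.69 in resilient mice. Again susceptible 4 alone overlapped the naive range, and resilient 2 was the lowest of its group. The difference was 0.89 ± 0.24 in susceptible mice, which missed the threshold (limma, adjusted p = 0.0613) but passed with slide as a block (0.0283). It also passed without resilient 2 (0.0479). In resilient mice the difference of Osmr was 1.02 ± 0.29 (limma, adjusted p = 0.102, and 0.0327 with mice paired by number). The limits of the paired fit given for Socs3 hold here too. Il6ra, the interleukin 6 receptor gene, had 0.58 ± 0.15 (limma, adjusted p = 0.0588). Cebpd, a C/EBP factor gene, had 0.89 ± 0.36 (limma, adjusted p = 0.153). The subunit and factor genes Il6st (0.02), Lifr (0.02) and Stat3 (0.11) were close to 0, and Il6 itself was well above background on 0 of 14 arrays.

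In the interleukin 1 and NF-kB list, 0 of 16 tested genes rose and 1 fell in susceptible mice, with a median of 0.03. Tnfrsf1a, the TNF receptor 1 gene, fell by 0.41 ± 0.10 (limma, adjusted p = 0.0431), a call lost in 16 of 27 other settings. Those were 11 of 14 fits without a mouse (not those without naive 5, susceptible 6 or resilient 1), normexp (limma, adjusted p = 0.0978), the mean of the gene's probes (0.168), only the 2 groups compared (0.0644), array weights (0.0501) and no filter on dim probes (0.0917). Il1r1, the signalling interleukin 1 receptor gene, had a difference of 1.21 ± 0.42 that did not pass (limma, adjusted p = 0.110). The ligand genes Il1a, Il1b and Tnf were well above background on 0 of 14 arrays.

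Of 20 glucocorticoid-induced genes, all tested, 8 rose and none fell in susceptible mice, with a median of 0.63. They were Plin4 (1.42 ± 0.26), which coats lipid droplets, Fkbp5 (1.37 ± 0.26), which binds the glucocorticoid receptor complex, Cdkn1a (1.13 ± 0.28), a cell cycle inhibitor, and Tsc22d3 (1.09 ± 0.23), which encodes GILZ. The others were the transcription factor genes Zbtb16 (0.94 ± 0.18), Hif3a (0.84 ± 0.18) and Klf9 (0.55 ± 0.12) and the kinase gene Map3k6 (0.92 ± 0.19). Their adjusted p-values in limma ran from 0.0252 to 0.0459, and 1.64% of all tested genes were called higher. Of 27 other settings, the call was lost in 10 for Tsc22d3 and for Hif3a, 8 for Map3k6 and 6 for Zbtb16. It was lost in 5 for Fkbp5 and 4 for Plin4. Without susceptible 1, 2 or 5, 0 of the 20 were called higher, and 0.187%, 0.298% and 0.429% of all genes were called in either direction. In resilient mice the median of the list was 0.61 and 0 of 20 passed, but with mice paired by number 6 rose and none fell (Cdkn1a, Klf9, Map3k6, Plin4, Tsc22d3 and Zbtb16; median 0.62). This list had been seen to stand out in earlier results of these data.

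Of the acute phase list, without the 3 genes above, 12 of 27 were tested. Of these, 0 were called in either direction in susceptible mice, and the median was 0.21. Hp, the haptoglobin gene, had 0.64 ± 0.23 (limma, adjusted p = 0.121), Cd14, a lipopolysaccharide co-receptor gene, 0.60 ± 0.18 (adjusted p = 0.0732), and Itih3 −0.39 ± 0.10 (adjusted p = 0.0578). Saa2, Saa3, Orm1 and Orm2, typical acute phase genes of the liver, were well above background on 0 arrays. Among other lipocalin genes 0 of 7 tested passed. Ptgds, which makes prostaglandin D2, had −1.48 ± 0.74 (limma, adjusted p = 0.237), and C8g, a complement component gene, −0.14 ± 0.10 (adjusted p = 0.411).

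Serpina3n has close relatives in a gene cluster, and 9 of the 10 listed were on the array and 3 were bright enough to be tested. Neither Serpina3h (susceptible difference −0.22 ± 0.15, limma adjusted p = 0.375) nor Serpina3b (−0.21 ± 0.20, adjusted p = 0.557) passed. Serpina3k was well above background in 4 of 5 naive and all defeated mice. It passed the filter on dim probes only through defeated mice, where it was higher, so it is described with no test. Its difference was 0.50 ± 0.34 in susceptible and 1.03 ± 0.41 in resilient mice. Whether the Serpina3n probe also binds transcripts of these relatives was not tested. Among leukocyte serine proteases and their inhibitors, 0 of 8 tested rose and 1 fell, Serpinb1a, an inhibitor of neutrophil elastase (−1.19 ± 0.24, limma adjusted p = 0.0304). The call of Serpinb1a was lost in 8 of 27 other settings.

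Among receptors of lipocalin 2 and iron handling genes, 0 of 11 tested rose and 1 fell in susceptible mice, with a median of −0.33. Slc40a1 encodes ferroportin, the iron exporter. It fell by 0.99 ± 0.16 (limma, adjusted p = 0.0175), and in resilient mice its difference was −0.71 ± 0.19 (adjusted p = 0.0956). The receptor gene Slc22a17 had 0.14 ± 0.08 (limma, adjusted p = 0.294). Lrp2, the megalin gene, was well above background in 2 naive mice and in 0 defeated mice, and Mmp9, whose product binds lipocalin 2, on 0 arrays. Among TGF-beta receptor and SMAD genes, through which LRG1 acts, 0 of 18 rose and 1 fell, with a median of −0.24. That gene was Acvrl1, which encodes the endothelial receptor ALK1 (−0.77 ± 0.16, limma adjusted p = 0.0312, and 0.0634 with normexp). The call of Acvrl1 was lost in 9 of 27 other settings, 7 of them fits without a mouse. The co-receptor gene Eng had −0.30 ± 0.14 (limma, adjusted p = 0.193).

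**Figure D4:**
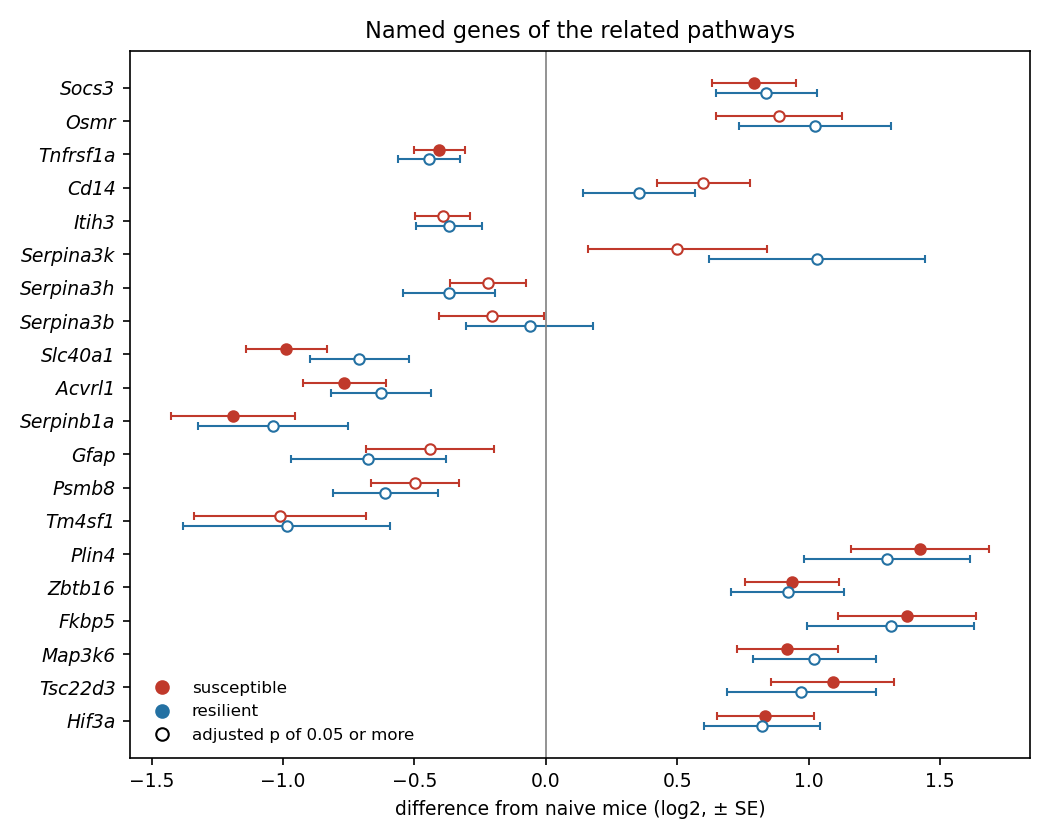
Difference in log2 level from naive mice (horizontal axis, with SE) of genes from the pathway lists in susceptible and resilient mice, with filled points for an adjusted p under 0.05. In this fit, which does not pair mice by number, filled points are found in susceptible mice only, with Socs3 and 6 glucocorticoid-induced genes to the right of 0 and Tnfrsf1a, Slc40a1, Acvrl1 and Serpinb1a to the left.

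Of 8 tested genes shared by reactive astrocytes, Lcn2 and Serpina3n not among them, 0 passed in susceptible mice and the median was −0.23. Gfap, the intermediate filament gene used most often for this state, had −0.44 ± 0.24 (limma, adjusted p = 0.284), and Vim −0.54 ± 0.25 (adjusted p = 0.202). Of the 8 differences 2 were above 0, with Osmr the highest at 0.89 ± 0.24 (limma, adjusted p = 0.0613). Of 8 tested genes of astrocytes made reactive by lipopolysaccharide, 0 passed and all 8 differences were below 0 (median −0.50), among them Psmb8 at −0.50 ± 0.17 (limma, adjusted p = 0.0993). Of 6 tested genes of astrocytes made reactive by ischaemia, 0 passed, with a median of −0.28 and Tm4sf1 at −1.01 ± 0.33 (limma, adjusted p = 0.0931). Of these 6 differences 2 were above 0, with Cd14 the highest at 0.60 ± 0.18 (limma, adjusted p = 0.0732).

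Markers of cell types that make these proteins were read in the same arrays, with summed linear levels over each list. Among astrocyte markers, 2 of 10 fell in susceptible mice, Aldoc by 0.53 ± 0.11 (limma, adjusted p = 0.0312) and S100b by 0.64 ± 0.16 (adjusted p = 0.0491). With quantile normalisation both missed the threshold (Aldoc −0.15, limma adjusted p = 0.539; S100b −0.51, adjusted p = 0.0596), and S100b did so with normexp (0.115). The summed level of the 10 markers was 660 to 857 in naive, 487 to 609 in susceptible and 487 to 562 in resilient mice, but Aldoc made up 67.7% to 78.4% of it. The sums of the other 9, taken after the data were seen, overlapped between naive (148 to 201) and susceptible mice (133 to 174) and were 125 to 148 in resilient mice, where resilient 3 at 147.6 and naive 1 at 147.8 were nearly level. Endothelial markers had 1 of 8 lower, Slco1a4 by 0.73 ± 0.16 (limma, adjusted p = 0.0392; 0.0777 with normexp), and their summed levels overlapped (35.7 to 53.2, 33.0 to 47.1 and 28.5 to 54.3). Leaving out a mouse at a time, the calls of Aldoc, S100b and Slco1a4 were lost in 6, 11 and 10 of 14 fits. Of 8 meningeal markers 0 were called, with a median of −1.02 and sums of 26.1 to 44.4 in naive, 11.3 to 29.4 in susceptible and 11.1 to 31.4 in resilient mice. Of 8 microglial markers 0 were called, with a median of −0.13 and sums of 124 to 138, 98.7 to 125 and 118 to 125. The part of these shifts in the values of Lcn2, Lrg1 and Serpina3n was not tested.

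Of 6 neutrophil markers bright enough to be tested, S100a8 and S100a9 passed the filter on dim probes only through defeated mice, where they were higher, so they are described with no test, and 0 of the other 4 were called. S100a9 was above background in 4 of 5 naive and all defeated mice, with a difference of 3.53 ± 0.64 in susceptible mice (2.27 with normexp). S100a8 was well above background in 0 of 5 naive, 5 of 6 susceptible and 3 of 3 resilient mice. It was 4.94-fold higher in susceptible than in naive mice when naive arrays were set to their lowest signal above background where the probe was dimmer. This fold is not a firm lower bound, as with normexp the log2 difference of S100a8 was 1.20, a smaller fold. Retnlg was above background in 4 susceptible and 1 resilient mice and 0 naive mice, Ngp and Ltf each in 1 susceptible mouse, and Mmp8 and Cxcr2 on 0 of 14 arrays. Of 12 neutrophil markers on the array, 4 to 6 were above background in a naive, 5 to 10 in a susceptible and 6 to 8 in a resilient mouse. Their summed levels overlapped (80.5 to 128, 63.6 to 145 and 112 to 118). The lowest sums were those of slide 3, 81.6 and 80.5 in naive 4 and 5 and 63.6 and 71.0 in susceptible 5 and 6. S100a8 and S100a9 were highest in susceptible 2, at log2 levels of 0.43 and 2.20, and made up little of its linear sum of 120. A change in these genes would therefore hardly show in the sums. The number of markers above background in susceptible mice 1 to 6 was 10, 8, 7, 5, 8 and 6. Their Lcn2 levels were 3.47, 2.56, 1.78, 1.43, 2.90 and 3.05. On their arrays 61.5%, 55.2%, 56.9%, 53.6%, 65.4% and 59.0% of all spots were well above background. The part of neutrophil RNA in the levels of Lcn2 and Lrg1 was not tested. Red cell markers had 0 of 7 called, a median of 1.49 and sums of 6.50 to 18.9, 9.72 to 67.3 and 10.5 to 48.8. Susceptible 6 had the lowest red cell sum of its group, 9.72, within the naive range, with Lcn2 at 3.05, Lrg1 at 1.65 and Serpina3n at −0.52.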

How the data were processed

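RNA of 14 mice was measured on 1-colour Agilent arrays (design 028005). Per the file headers and the submitters' processing notes, the authors extracted the deposited intensities with Agilent Feature Extraction 11.0.1.1, whose processed signal is background-corrected; the headers name build mm9. The authors' deposited value table, on a log2 scale, differed from log2 of these signals by a constant per array (r = 1, column medians −3.08 to −2.73, so direction and scale match and genes were not centred) and served as an alternative.

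Each array's log2 signals were set relative to the 75th percentile of its non-control spots, and the spots of a probe were averaged without outlier spots. A probe was kept when it was well above background, by the deposited flag, on all arrays of at least 1 group, and counts as above background when a share of 0.5 of its spots is. Of several probes of a gene the brightest stands for it. Probes were named through RefSeq accessions (GRCm38.p6 table), which gave 27509 of 55681 probes a gene. The group comparisons used limma 3.58.1 (R 4.3.3; lmFit and eBayes over all 3 groups, Benjamini-Hochberg adjustment over 14453 genes, threshold 0.05) after a test on simulated data. The labels give each array an individual mouse. Precision is limited by how few arrays there are.

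The genes and lists were chosen with earlier results of these data known. Genes were named by a rule: those past the threshold in each function list, up to 6, or else the 2 with the smallest p, up to 2 per marker list, and the 5 most like each of the 3 genes. Klf9, Cdkn1a, Il6ra, Cebpd, Il6st, Lifr, Stat3, Il1r1, Hp, Slc22a17, Eng and Vim, and genes named as not above background, were added after their values were seen. The numbers in the labels were not shown to pair the mice. Deviations from the group mean correlated at 0.11 to 0.32 in the 3 resilient and naive pairs. They correlated from −0.37 to 0.71 in the 5 susceptible and naive pairs and from −0.38 to 0.39 in the 3 susceptible and resilient pairs. Fits with mice paired by number are therefore an alternative only. They used mice whose number was in both groups (6 for resilient and naive). The labels used here do not say which mice belong to which of the study's independent experiments, so experiment was not analysed. Alternatives were another normalisation, normexp on the median spot and background intensities (mean signals were not used here), dim-probe filter, probe summary, slide, scan day or number as a block, array weights, only the groups compared, another threshold and leaving out each mouse.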

Additional observations from a re-analysis of the deposited data

Results flagged for a closer look

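Of 132 groups of mice checked for the named genes, 3 had a mouse far from the others of its group, and chance alone marks about 1 in 20 groups. Fkbp5 in naive 3 was 2.36, with the nearest naive mouse at 1.72. Lratd1 in susceptible 3 was 1.22, with the nearest susceptible mouse at 1.50. Chia1 in naive 4 was −2.17, with the nearest naive mouse at −2.01. No level of Lcn2, Lrg1 or Serpina3n in the naive or susceptible mice was marked in this way, and the resilient group of 3 is too small for this check.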

How the results depend on the processing

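The differences of Lcn2, Lrg1 and Serpina3n from naive mice kept their sign under every alternative run. Leaving out a mouse at a time gave 3.17 to 3.58, 2.16 to 2.52 and 0.88 to 1.38 for Lcn2, Lrg1 and Serpina3n in susceptible mice, and 2.31 to 3.55, 1.46 to 2.51 and 0.29 to 1.01 in resilient mice. Susceptible minus resilient gave −0.19 to 1.05, −0.19 to 0.86 and 0.19 to 0.92. With normexp the susceptible differences were 2.87, 1.68 and 0.55. The count of pathway genes called in susceptible against naive mice was 13 as reported. It was 34 with slide and 37 with scan day as a block, and 31 with array brightness as a covariate (chosen after seeing the data). In those fits 15.3%, 17.3% and 10.1% of all genes were called, against 2.6%. The count was 26 at an adjusted p under 0.1 (9.85% of all genes), 6 with only the 2 groups compared (0.457%) and 1 with no filter on dim probes (0.168%). Without a single mouse the count was 1 to 20, with 0.187% to 6.01% of all genes called. In resilient against naive mice, where it was 0, it was 2, 23, 20 and 9 under the first 4 of these (1.49%, 17.2%, 14.9% and 6.72%, against 3.54%, 10.2%, 7.6% and 2.24% of all genes), 16 with array weights and 0 to 1 without a single mouse. With the replicate number as a block it was 30 and 24 in these comparisons (22.4% and 17.9%, against 4.78% and 8.37% of all genes); 4 of 10 susceptible and naive mice correlated best with the mouse of their own number. Between susceptible and resilient mice it was 0 throughout. The resilient difference changed sign for Kl with normexp (−0.021) and for Tbr1 with a mean over probes (0.13). The cause of these changes was not tested. Signal over background limits Serpina3n, which was dim in naive mice.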
